A study of Mus musculus with 11 samples.

Results

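Type 1 conventional dendritic cells (cDC1s) were sorted from B16 melanomas, and the 4 pools that formed the control group were described here without any contrast, chosen by their label out of the 11 pools of the series. Control pools 1, 2 and 3 came from XBP1 fl/fl mice and control pool 4 from XBP1 fl/fl, IRE1 fl/fl mice. All 4 carried floxed alleles without the CD11c (Itgax)-Cre transgene that deleted Xbp1, or truncated IRE1 as well, in CD11c+ cells of the 2 other groups (4 XBP1dDC pools and 3 XBP1dDC IRE1truncDC pools). Each pool combined tumor tissue of 2 to 4 mice, and cells were enriched with CD45 beads before sorting. The labels give no age or sex for a pool and do not say how the pools were spread over experiments, so the spread between them may be partly technical. With a single control pool carrying the IRE1 fl/fl alleles, an effect of those alleles cannot be told apart from ordinary variation between pools.

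cDC1s are the dendritic cells that take up dead cells, carry their antigens to lymph nodes and cross-present them on MHC class I to CD8+ T cells. Their development depends on the transcription factors IRF8 and BATF3, and their surface carries the chemokine receptor XCR1, the dead-cell receptor CLEC9A (DNGR-1) and the integrin CD103. The unfolded protein response (UPR) watches protein folding in the endoplasmic reticulum (ER) through the sensors IRE1, PERK and ATF6. IRE1 removes a short stretch from Xbp1 mRNA to give the transcription factor XBP1s, and it can also cleave other mRNAs, which is called RIDD, for regulated IRE1-dependent decay.

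Expression was measured by bulk RNA-seq as counts per gene. The control pools held between 22173308 and 26843486 counts over 24421 genes. Levels are given as CPM (counts scaled to a fixed library total) after normalization for library composition, and levels of different genes are compared per length, as TPM (the same after division by exon length). A mean is given with its SD over the 4 pools. A gene counted as detected in all pools when it exceeded 1 CPM in each, and 10157 genes did so. The shares of reads on Rn45s (ribosomal RNA precursor, 0.694% to 0.802%), on ribosomal protein genes (1.59% to 1.68%) and on the 50 genes with most reads (24.97% to 25.32%) differed little between the pools.

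A few transcripts dominated these cells, and many of them belonged to antigen presentation by MHC class II, the actin cytoskeleton and the lysosome. The 20 genes with the highest per-length level held 29.6% of all TPM. The invariant chain Cd74, which guards the class II groove until peptide loading, ranked first with 51574 ± 1587 TPM (SD, n = 4). The actin-sequestering peptide Tmsb4x had 48108 ± 1857 TPM, the cysteine protease inhibitor Cst3 had 42353 ± 1555 TPM, and the class II beta chain H2-Ab1 had 35311 ± 1202 TPM. No pool of one overlapped a pool of the next, since Cd74 ranged from 49987 to 53267 TPM, Tmsb4x from 45383 to 49563 TPM, Cst3 from 40749 to 43755 TPM and H2-Ab1 from 33514 to 35991 TPM.

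Actb (26754 ± 1094 TPM), the class II alpha chain H2-Aa (19568 ± 366 TPM), the sphingolipid activator precursor Psap (11376 ± 867 TPM) and the class II chain H2-Eb1 (11109 ± 186 TPM) followed. The pools of Psap and H2-Eb1 overlapped. The rest of the 20 were B2m, the light chain of class I molecules, the actin regulators Pfn1 and Cfl1, the ferritin chain Ftl1, and Crip1, Cd52, Mir6236, Sh3bgrl3, Naaa, Plbd1, Id2 and Ppt1, between 2701 and 6839 TPM. Naaa and Ppt1, lysosomal hydrolases, and Id2, an inhibitor of helix-loop-helix factors needed for dendritic cell development, are also known cDC1 genes. The level of Mir6236 rests on a very short annotated locus. Together, Cd74, H2-Ab1, H2-Aa and H2-Eb1 took 11.8% ± 0.284 of all TPM. By reads instead of TPM, Cd74 alone took 3.52% of the reads, and among the 10 genes with most reads Rn45s, at 7457 ± 568 CPM, was the one outside the per-length list.

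**Figure D1:**
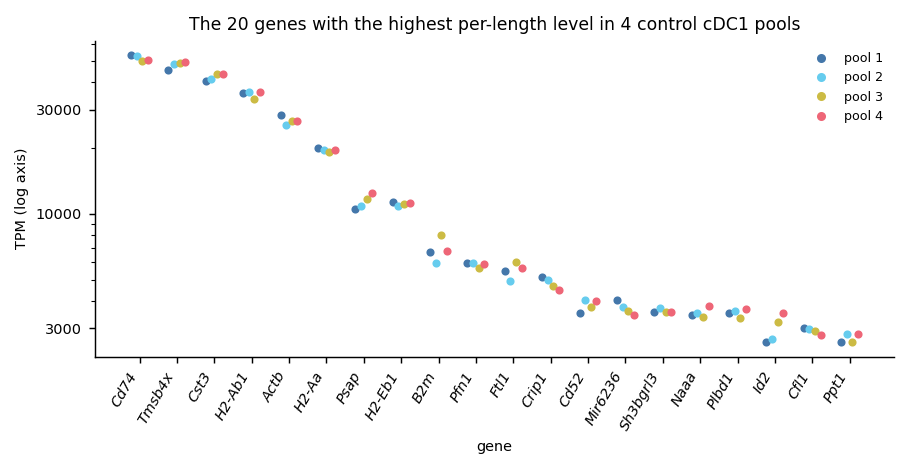
Per-length level (TPM, log axis) of the 20 genes with the highest mean over the 4 control pools, with 1 point per pool. Cd74 at 51574 TPM and Tmsb4x at 48108 TPM lie far above the twentieth gene, Ppt1 at 2701 TPM, and the pools of most genes lie close together.

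The labelled cell type was checked against its marker genes. All 20 genes of the cDC1 identity list exceeded 1 CPM in all 4 pools. Irf8 was read at 3686, 4000, 4285 and 4488 CPM in pools 1 to 4, Xcr1 at 773, 875, 872 and 862 CPM, and Clec9a at 150, 122, 144 and 143 CPM. Itgae, the gene of CD103, had 1171, 1049, 1182 and 1232 CPM, and Batf3 had 79.8, 76.4, 65.5 and 76.0 CPM. No pool lacked any of the 5 markers, and the pools of each lay close together. Per length, Irf8 (2475 ± 255 TPM) was the highest of the 5, followed by Itgae (622 ± 44.95 TPM), Xcr1 (392 ± 29.8 TPM), Batf3 (192 ± 15.0 TPM) and Clec9a (87.6 ± 6.92 TPM), and no pool of one overlapped a pool of the next.

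Other cDC1 genes spread less or more than these 5. Wdfy4, which is needed for cross-presentation of cell-bound antigen, had 1536, 1624, 1509 and 1666 CPM, and the double-stranded RNA receptor Tlr3 had 378, 394, 470 and 479 CPM. Cadm1, an adhesion molecule, lay between 244 and 305 CPM, Id2 between 1639 and 2125 CPM, and Cxx1a, the lowest member and the one with the largest spread, between 7.09 and 10.3 CPM. Summed over the list, the level was 22352, 22701, 22942 and 24329 CPM. The median SD of its members on the log2 scale was 0.10, beside 0.18 for all genes tested. For all genes with a mean of at least 10 CPM, as 19 of the 20 members had, that median was 0.15. Neither set of genes was matched to the level of the list, whose members had a median of 788 CPM. Cd24a, at 1026, 1031, 1026 and 1056 CPM, had the smallest spread of all genes above 1000 CPM (SD of log2 CPM 0.02). The study's flow cytometry gate for tumor cDC1s used MHC class II, CD11c, CD26, XCR1 and CD24, so levels of Xcr1, Cd24a, Itgax (173 to 202 CPM) and Dpp4 (365 to 421 CPM) are no independent check. Whether the sort used the same gate is not given in the sources used here.

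Lists of other lineages held genes near 0 beside genes with clear levels. Of the cDC2 list, Sirpa lay between 5.44 and 12.7 CPM, Irf4 between 2.85 and 8.73 CPM and Cd209a between 0.357 and 2.85 CPM, while Klf4 lay between 35.4 and 87.4 CPM, Il1r2 between 30.1 and 54.0 CPM and Mgl2 between 10.3 and 40.2 CPM. Per length, Irf8 stood 586 to 1947 times above Irf4 in the 4 pools. The monocyte and macrophage list summed to 1788, 1797, 1220 and 1334 CPM, and Lyz2 (989, 943, 632 and 694 CPM) and Ccr2 (586, 686, 433 and 522 CPM) made up most of it. Cd14 (162, 112, 71.5 and 40.9 CPM) and Apoe (13.9, 18.4, 26.3 and 29.6 CPM) followed. Lower members were Csf1r, which lay between 5.81 and 9.77 CPM, Adgre1 (F4/80), between 3.15 and 6.14 CPM, Fcgr1, between 0.994 and 1.83 CPM, and C1qa, between 0.381 and 7.09 CPM. Xcr1 exceeded Csf1r 102 ± 22.3-fold per length.

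The neutrophil list summed to less than 1 CPM in each pool (0.331 to 0.999 CPM) and 6 of its 9 listed genes were at 0 counts in all pools. The T cell list summed to 2.63 to 4.28 CPM, with Cd5 its highest member at 1.26 to 2.40 CPM, and the B and plasma cell list to 1.83 to 7.16 CPM. These sums leave out Trac and Trbc2 of the T cell list and Ighm and Igkc of the B and plasma cell list, which are not analysed here. The NK cell list summed to 228 to 309 CPM, nearly all from Klrk1 (287, 215, 236 and 207 CPM) and Tbx21 (14.8 to 21.4 CPM), while Ncr1, Prf1, Gzma and Eomes stayed below 0.6 CPM in every pool. Of the plasmacytoid list, Siglech lay between 3.02 and 5.53 CPM and Klk1 was at 0 counts, while Tcf4 lay between 21.7 and 25.97 CPM and Bst2, which interferon also induces, between 67.1 and 78.8 CPM. Red cell genes Hba-a1, Hba-a2, Hbb-bs and Hbb-bt were listed at 0, but each has a near-identical copy with which it can share reads, so their level is uncertain.

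**Figure D2:**
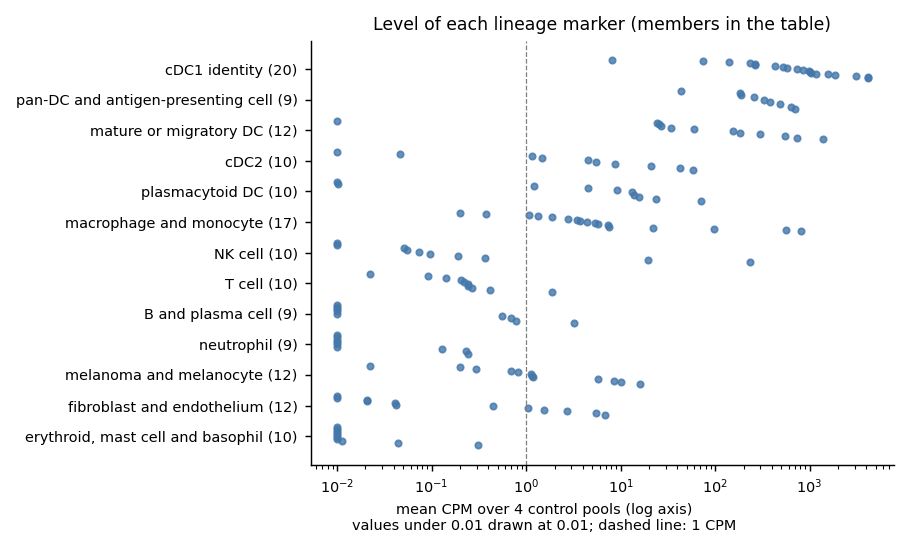
Mean CPM over the 4 control pools (log axis) of each lineage marker, 1 point per gene, with the number of members in the table in brackets and genes near 0 drawn at the left edge. The 20 cDC1 identity genes lie above the dashed line at 1 CPM, whereas all 9 neutrophil genes lie below it.

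The highest genes of MHC class II presentation, Cd74, H2-Ab1, H2-Aa and H2-Eb1, were as abundant as they were even. The list of 17 genes summed to 85159, 80777, 77881 and 78834 CPM, all 17 exceeded 1 CPM in every pool, and their median SD of log2 CPM was 0.07. The transactivator Ciita had 568, 566, 552 and 589 CPM. The peptide exchange factors H2-DMa (1334 ± 42.5 TPM) and H2-DMb1 (1586 ± 112 TPM) lay several-fold above their partners H2-Oa (248 ± 8.65 TPM) and H2-Ob (226 ± 14.3 TPM), which restrain them, and no pools overlapped. March1, the ligase that removes class II from the surface, lay between 203 and 215 CPM. March8, between 1.66 and 6.69 CPM, had the largest spread of the list (SD of log2 CPM 0.82). Of the proteases that trim the invariant chain, Ctss (1278 ± 84.1 TPM) was far above Ctsl (10.3 ± 2.67 TPM). The members that varied most among those with a mean of at least 10 CPM were the minor chain H2-Eb2, at 11.6, 5.73, 13.0 and 10.3 CPM, and the asparaginyl endopeptidase Lgmn, at 93.9, 45.7, 91.9 and 72.3 CPM. Both were lowest in pool 2.

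The class I list varied more than the class II list, with a median SD of log2 CPM of 0.15. B2m had 2866, 2476, 3307 and 2756 CPM, H2-K1 had 1511, 1229, 1555 and 1348 CPM, and H2-D1 had 1693, 1464, 1687 and 1489 CPM. Pool 2 was the lowest for all 3. Per length, H2-Ab1 exceeded H2-K1 20.3 ± 2.55-fold. H2-Q6 was at 0 counts and H2-Q7 at no more than 0.0424 CPM, but these genes have near-identical copies whose shared reads may not have been counted, so their level is uncertain. The class I transactivator Nlrc5 lay between 53.9 and 67.4 CPM.

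The peptide-loading genes formed an even group, with all 11 above 1 CPM in every pool and a median SD of log2 CPM of 0.12. The peptide transporter subunits had 815 ± 67.8 TPM (Tap1) and 453 ± 25.5 TPM (Tap2), and their ratio was 1.80 ± 0.0648. Tapasin (Tapbp, 879 ± 55.5 TPM) did not differ from Tap1 beyond the spread, being higher in 3 of 4 pools. The pools of the loading chaperones Calr (1022 ± 71.0 TPM) and Pdia3 (1044 ± 50.9 TPM) overlapped, and the trimming peptidase Erap1 had 50.03 ± 2.64 TPM.

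Immunoproteasome subunits, the interferon-inducible forms of the catalytic sites, outnumbered or matched the standard subunits they replace. Psmb8 (1853 ± 74.7 TPM) exceeded Psmb5 (176 ± 19.4 TPM) by 10.6 ± 0.903-fold, in 4 of 4 pools. Psmb9 exceeded Psmb6 by 1.92 ± 0.162-fold, also in 4 of 4 pools. Psmb10 and Psmb7 did not differ beyond the spread, with a ratio of 1.10 ± 0.131 that lay above 1 in 3 of 4 pools. The activator subunits Psme1 (1223 ± 65.3 TPM) and Psme2 (1126 ± 71.1 TPM) lay well above Psme3 (204 ± 13.8 TPM).

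Of the 18 genes tied to cross-presentation, 17 exceeded 1 CPM in all pools. The small GTPase Rab43 had 1249, 1174, 1176 and 1095 CPM, and the SNARE Sec22b 60.3, 61.3, 60.9 and 57.7 CPM. Among subunits of the phagosomal NADPH oxidase, Cyba had 1481 ± 13.8 TPM, whereas the catalytic subunit Cybb had 1.48 ± 0.623 TPM. The other subunits were well detected, with Ncf1 at 235 ± 16.2 TPM, Ncf4 at 270 ± 17.4 TPM and Rac2 at 136 ± 17.8 TPM, so Cybb stood apart among the subunits named here. The surface protein Plet1 was the member with the largest spread among those above 10 CPM, at 431, 255, 579 and 369 CPM.

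Among sensing receptors, endosomal Tlr3, Tlr11 (248, 286, 254 and 278 CPM) and Tlr13 (95.1, 80.8, 91.6 and 102 CPM) were the highest Toll-like receptors. Tlr9 lay between 1.43 and 3.19 CPM, Tlr7 between 0 and 0.999 CPM, and Tlr5 had 1 pool with reads, at 0.0370 CPM. The chaperone Unc93b1, which carries endosomal receptors out of the ER, had 989 ± 30.3 TPM. The DNA sensor Mb21d1 (cGAS) lay between 40.5 and 46.4 CPM and its partner Tmem173 (STING) between 187 and 239 CPM. The RNA helicase Ddx58 (RIG-I) was lower, at 1.47 to 6.48 CPM.

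Cytokine genes were led by Il1b, with 1875, 1413, 1844 and 1324 CPM. Il12b, the p40 chain of IL-12, had 367, 332, 590 and 375 CPM, whereas Il12a, the p35 chain with which it forms IL-12, was at 0 counts in all 4 pools, which allows up to 0.111 to 0.134 CPM per pool. Il27, Il10 and Il6 were at or below 3.605 CPM in each pool, and the type I interferon genes Ifna4 and Ifnb1 at or below 0.0847 CPM. The chemokine receptor Ccr7, which guides dendritic cells to lymph nodes, exceeded Ccr2 3.96 ± 1.92-fold per length. Flt3 and Kit, receptors for growth factors, had 595 to 725 CPM and 284 to 359 CPM. Costimulatory Cd86 (296 to 330 CPM) stood 11.7 ± 4.04-fold above Cd80 per length, and the inhibitory receptor Havcr2 (TIM-3) had 262, 220, 206 and 219 CPM.

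The ER and the UPR were described next. Xbp1 mRNA had 244, 249, 254 and 271 CPM (247 ± 15.5 TPM). Counts per gene hold both forms of the mRNA, so they give its level and not its splicing. The stretch that IRE1 removes was located in transcript Xbp1-201 as the 26 bases between a pair of matching cut sites whose removal lengthens the reading frame from 267 to 371 residues. It lies in exon 4 of 5, in the coding sequence, at chr11:5524279-5524304 (GRCm38, plus strand), and is shown because its removal makes XBP1s. The stretch is in capitals, with its flanks in lower case (chr11:5524255-5524328).
Xbp1: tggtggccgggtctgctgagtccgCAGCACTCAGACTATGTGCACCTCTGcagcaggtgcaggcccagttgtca

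The UPR sensors differed widely in level. Ern1, the gene of IRE1, was the lowest of the 3 sensors, with 19.0, 14.1, 13.1 and 9.81 CPM (4.13 ± 1.03 TPM). Eif2ak3, the gene of PERK, had 47.4, 44.9, 52.2 and 42.9 CPM (19.9 ± 1.62 TPM), and Atf6 had 189, 180, 147 and 160 CPM (48.0 ± 4.77 TPM). Per length Eif2ak3 lay 5.04 ± 1.20-fold and Atf6 12.1 ± 2.62-fold above Ern1, in 4 of 4 pools each. The epithelial paralog Ern2 and the liver factor Creb3l3 were at 0 counts. Xbp1 itself lay 63.3 ± 19.96-fold above Ern1, and the tRNA ligase Rtcb, which joins the Xbp1 ends, had 216 ± 2.05 TPM, the smallest spread of the list.

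Of the downstream factors, Atf4 had 169, 146, 130 and 125 CPM (170 ± 20.3 TPM), Atf3 468, 355, 384 and 283 CPM, and Ddit3 (CHOP), the factor linked to death under ER stress, 9.23, 8.07, 8.95 and 8.16 CPM. Atf4 and Atf3 were highest in pool 1 and lowest in pool 4, while the pools of Ddit3 lay close together. On the list of sensors and factors 12 of 15 tested genes spread beyond counting error by a chi-square test with Benjamini-Hochberg adjustment, against 87.8% of all 10724 genes tested.

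ER chaperones were abundant and even. Hspa5 (BiP), the main ER chaperone of the HSP70 family and a partner that holds the sensors inactive, had 1629, 1703, 1646 and 1717 CPM (1322 ± 58.6 TPM). Calr was next per length, and Hsp90b1 (GRP94) had 898, 1036, 1006 and 1108 CPM (740 ± 78.4 TPM). Hspa5 exceeded Hsp90b1 1.80 ± 0.120-fold and Xbp1 5.36 ± 0.176-fold per length. The BiP cofactors Sdf2l1 (508 ± 55.5 TPM), Manf (151 ± 10.5 TPM) and Dnajb11 (112 ± 8.20 TPM) were well detected, whereas Dnajb9, which recruits BiP to IRE1, had 24.3 ± 0.965 TPM. In all, 20 of 21 genes of the list exceeded 1 CPM in every pool, their sum was 5990, 6438, 6038 and 6420 CPM, and their median SD of log2 CPM was 0.10.

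The exception was Serpinh1 (HSP47), a chaperone of collagens, with 0.805, 2.00, 5.05 and 5.53 CPM. It was low in pools 1 and 2 and higher in pools 3 and 4. The collagen gene Col3a1 had 0, 1.52, 3.40 and 5.98 CPM and Col1a2 0.339, 0.0370, 1.74 and 4.01 CPM. The fibroblast and endothelium list as a whole summed to 15.6, 13.0, 19.4 and 24.5 CPM, with Pdgfra at 0 counts and Dcn at 0 in pools 2, 3 and 4. The part of such transcripts in the Serpinh1 values was not tested.

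The promoters of several of these chaperones share the ER stress response element, CCAAT and CCACG with 9 bases between them, through which ATF6 and XBP1 are known to act. It was searched on either strand in the 250 bases before each start in the RefSeq promoter table (GRCm38.p6). It was found for 6 of the 17 ER chaperones matched in that table (35.3%) and for 1 of 12 disulfide genes, beside 0.113% of all 32851 promoter windows. A gene counted if any of its windows held the element, so shares of genes and of windows differ in unit. The 60 bases around the match closest to the start are printed, read along the gene's own strand, with the element in capitals, which stands on the other strand in Hsp90b1, Calr and Creld2. They lie at chr2:34772004-34772063 on the plus strand for Hspa5, chr10:86705513-86705572 on the minus strand for Hsp90b1, chr8:84847055-84847114 on the minus strand for Calr, and chr11:50325780-50325839 on the minus strand for Canx. The remaining ones lie on the plus strand at chr14:118937806-118937865 for Dnajc3, chr15:88819499-88819558 for Creld2 and chr12:17266470-17266529 for Pdia6. A match of letters is a description and not a bound site.
Hspa5: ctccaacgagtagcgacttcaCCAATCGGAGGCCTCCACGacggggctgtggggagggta
Hsp90b1: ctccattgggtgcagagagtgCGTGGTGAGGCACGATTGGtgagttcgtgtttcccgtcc
Calr: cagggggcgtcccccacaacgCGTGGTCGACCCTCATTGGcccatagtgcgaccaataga
Canx: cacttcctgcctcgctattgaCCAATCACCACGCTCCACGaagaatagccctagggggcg
Dnajc3: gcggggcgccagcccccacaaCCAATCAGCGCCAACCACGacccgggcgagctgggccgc
Creld2: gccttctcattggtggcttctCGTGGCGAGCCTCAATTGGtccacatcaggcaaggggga
Pdia6: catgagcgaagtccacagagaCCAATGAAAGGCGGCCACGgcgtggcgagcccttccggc

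The 7 genes with the element differed in level among themselves. Per length Hspa5, Calr and Hsp90b1 stood above Pdia6 (557 ± 37.1 TPM), which stood above Canx (344 ± 12.2 TPM), and Creld2 (171 ± 24.9 TPM) stood above Dnajc3 (81.8 ± 6.04 TPM). Pool 1 was the lowest for 4 of the 7, Hspa5, Hsp90b1, Canx and Creld2, beside 24.8% of all genes tested, and pool 3 for Calr, Dnajc3 and Pdia6. Pdia4, a disulfide isomerase without the element in its window, had 180, 239, 212 and 244 CPM.

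The other ER machinery was present throughout. Of 16 genes of disulfide formation 15 exceeded 1 CPM in all pools, with Pdia3, P4hb (652 ± 9.40 TPM) and Pdia6 highest, and the pancreatic Pdia2 at no more than 0.0847 CPM. Of the 24 genes of the translocon, signal recognition and signal peptidase 23 did, including Sec61a1 (311 ± 24.6 TPM), the channel subunit, and Sec61b (354 ± 20.7 TPM). Sec61g had 0.381 to 0.704 CPM although it encodes a subunit of the same channel, and whether its reads were lost to near-identical copies was not tested. All 15 genes of N-glycosylation and all 18 of ER-associated degradation exceeded 1 CPM, with Ddost (435 ± 16.8 TPM) and Herpud1 (556 ± 32.0 TPM) the highest of each. The list of COPII transport had sums of 1527, 1555, 1556 and 1572 CPM.

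Targets of the PERK and ATF4 branch were less even than chaperones, with sums of 1294, 1125, 1059 and 868 CPM and a median SD of log2 CPM of 0.30. Slc3a2, a subunit of amino acid transporters, had 326, 264, 264 and 203 CPM, Ppp1r15a (GADD34) 188, 143, 151 and 117 CPM, and Sesn2 122, 87.4, 87.9 and 76.7 CPM. Pool 1 was the highest and pool 4 the lowest for 7 of the 14 members tested, a pattern that 11% of all genes tested showed. Asns lay between 3.57 and 10.4 CPM, Chac1 between 4.86 and 6.17 CPM and Trib3 between 1.78 and 3.56 CPM, and Fgf21 was at 0 counts.

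**Figure D3:**
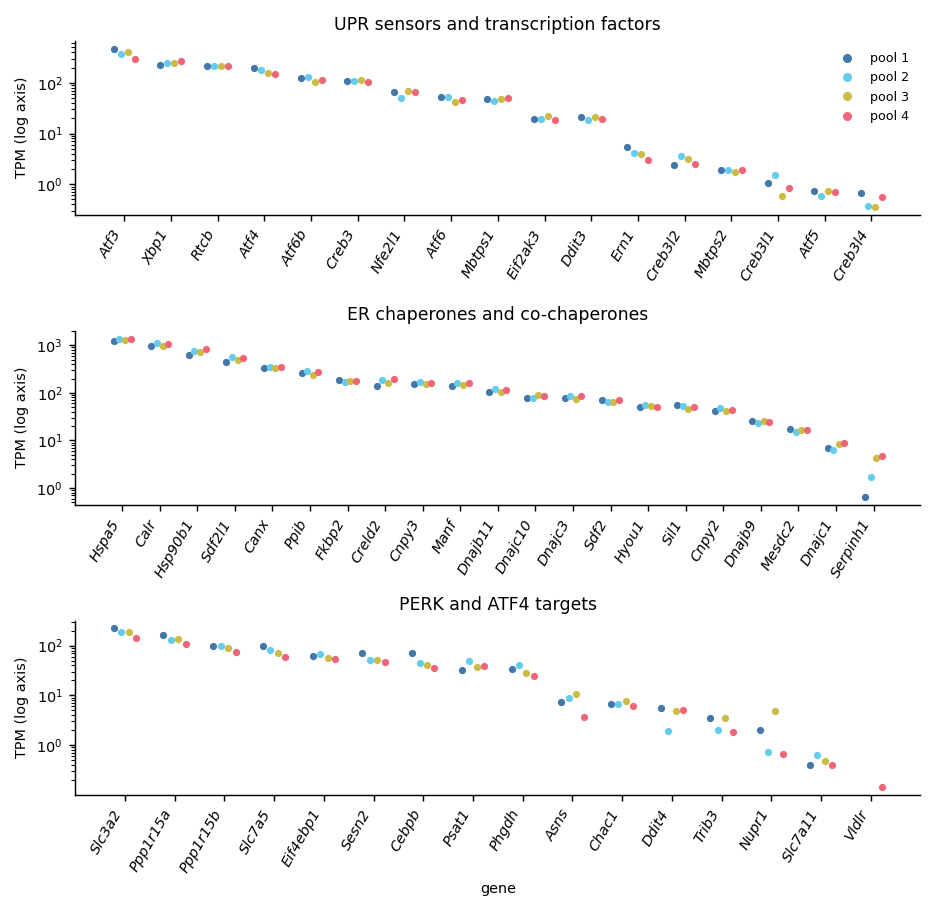
Per-length level (TPM, log axis) of genes for UPR sensors and factors, ER chaperones, and PERK and ATF4 targets, with 1 point for each of the 4 control pools and genes with no counts left out. Chaperones such as Hspa5 lie close together over the pools, Serpinh1 spreads widely, and Ern1 (4.13 TPM) lies far below Xbp1 (247 TPM).

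The RIDD substrates named in the study were all detected in these IRE1-sufficient cells. Their sum was 6397, 6243, 6622 and 6555 CPM, of which the lysosomal lipid-transfer protein Gm2a held most (3812, 3571, 4126 and 3964 CPM). The integrin chain Itgb2 had 841, 808, 819 and 854 CPM, the ganglioside synthase St3gal5 290, 312, 295 and 290 CPM, and Bloc1s1, the best known RIDD substrate, 40.6, 34.7, 31.9 and 31.4 CPM. Of the 12, 0 spread by more than 0.5 on the log2 scale, as did 2.68% of all genes with a mean of at least 10 CPM.

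Genes of cell survival and metabolism were detected as well. Mcl1 (607 ± 49.9 TPM) stood 181 ± 47.1-fold above Bcl2 per length, and its antagonist Pmaip1 (NOXA, 653 ± 103 TPM) lay above it in 3 of 4 pools, with a ratio of 1.07 ± 0.0928. The sterol regulator Srebf2 had 836, 790, 761 and 773 CPM, and the lipid droplet protein Plin2 182, 187, 198 and 222 CPM. Ldha (2337 ± 77.4 TPM) and Gapdh (1091 ± 91.9 TPM) led the glycolysis list, in which 9 of 13 tested members were higher in pools 3 and 4 than in pools 1 and 2, beside 17.8% of all genes tested. Aldoa had 684, 543, 809 and 857 CPM and Slc2a1, the glucose transporter GLUT1, 81.5, 65.2, 105 and 114 CPM. Eno1 was at no more than 0.127 CPM, a gene with a near-identical copy, so that its level is uncertain.

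Many genes had no counted reads. In all 4 pools 9956 genes (40.8% of the table) had 0 counts, among them 7056 of the 20521 genes matched to protein-coding annotation (34.4%). A count of 0 allows up to 0.134 CPM in the pool with fewest counts, and such intervals cover counting error only. They do not cover reads that may have been left uncounted because they fit several genes. Of the 618 list genes in the table, 32 were at 0 in every pool. Apart from genes of other lineages, these included Il12a, Ifna4, Ern2, Creb3l3, Fgf21, the COPII scaffold Sec16b, the BH3-only gene Hrk and Tsix. Lamp3 (DC-LAMP), from the list of mature or migratory dendritic cells, was also at 0.

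The spread between the control pools exceeded counting error for nearly every gene. The chi-square test (3 degrees of freedom, adjusted p under 0.05) called 9413 of the 10724 genes with a mean of at least 1 CPM. Amplified reads are not independent molecules, so counting error is a lower limit of the technical error. The biological coefficient of variation estimated by edgeR was 0.196. Of the 7976 genes with a mean of at least 10 CPM, the median had a coefficient of variation of 10.2%, where counting alone would give 2.99%, and 2224 (27.9%) had an SD of log2 CPM below 0.1.

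Among genes above 1000 CPM the most even were Cd24a, Hspa8, Actr3, Tmsb4x, Arpc1b, Lars2, Arpc2, Hspa5, Gnas and Cst3. Hspa8, the constitutive cytosolic HSP70, had 1362, 1324, 1335 and 1316 CPM. Actr3, Arpc1b and Arpc2 are subunits of the same actin-nucleating complex. Actr3, Lars2 and Gnas belong to no list and were chosen after their values were seen.

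An SD of log2 CPM over 0.5 was found for 214 of the 7976 genes (2.68%), and 4 genes exceeded 1. These were the melanocyte enzyme gene Dct (4.74, 4.11, 21.5 and 33.4 CPM, SD 1.51), the small GTPase gene Arf2 (370, 228, 257 and 35.8 CPM, SD 1.51), the glycoprotein gene Gpnmb (3.73, 3.26, 18.5 and 14.9 CPM, SD 1.29) and the mitochondrial pyrimidine carrier gene Slc25a33 (25.3, 14.5, 5.64 and 3.92 CPM, SD 1.22). Dct and Gpnmb were high in the same pools, 3 and 4, Arf2 was low in pool 4, and Slc25a33 was high in pool 1. The pools with the highest and the lowest value were pools 3 and 2 for 61 of the 214 genes, pools 1 and 4 for 54, and pools 4 and 1 for 23.

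The rest of the 25 genes with the largest spread fell into the same orders. Fcgr3, Wtip, Mgl2, Mpzl2, Tnip3, Ddx3y, 2510009E07Rik and Gng4 were highest in pool 3 and lowest in pool 2. Pdcd1, Cd14, Ly6a, Fosb, Vdr, Nr4a2 and Ccl7 were highest in pool 1 and lowest in pool 4. Kif18b and Ticrr, genes of cell division and replication, were highest in pool 4 and lowest in pool 1. Mmp14, Spon1, Spib and Xist followed other orders. Cd14, the lipopolysaccharide co-receptor, had 162, 112, 71.5 and 40.9 CPM, and Pdcd1 (PD-1) 23.04, 11.03, 21.2 and 6.33 CPM.

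**Figure D4:**
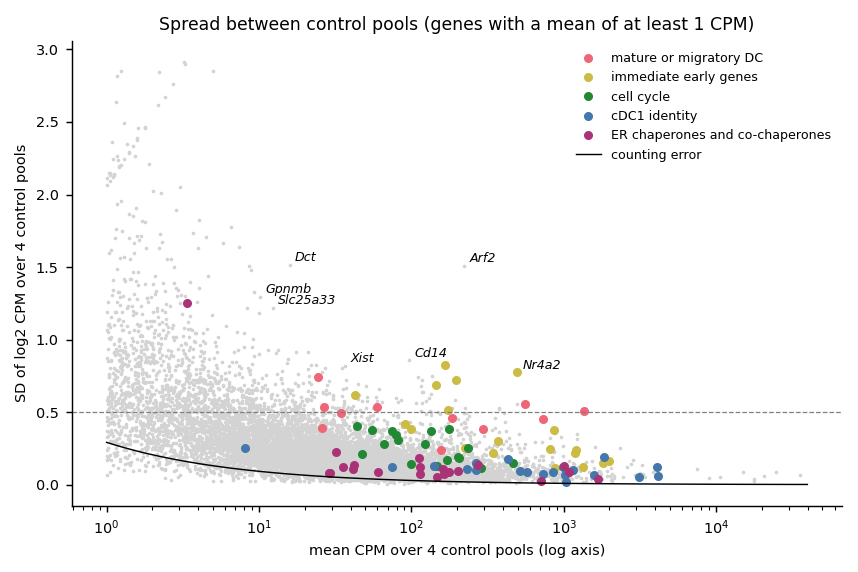
SD of log2 CPM over the 4 control pools against mean CPM (log axis), with 1 point per gene with a mean of at least 1 CPM. Members of 5 lists are coloured, the dashed line is 0.5 and the black line is counting error at the mean depth. The cDC1 genes lie low, whereas several mature dendritic cell and immediate early genes lie near or above the line, as do Dct and Arf2 at 1.51.

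Genes of mature or migratory dendritic cells shared an order over the pools. Ccr7 had 1708, 933, 1837 and 1007 CPM, the actin-bundling gene Fscn1 861, 504, 989 and 597 CPM, and the chemokine Ccl22 589, 321, 810 and 506 CPM. For each of them pool 3 was the highest and pool 2 the lowest, with pool 1 closer to pool 3 for Ccr7 and Fscn1. Of the 11 members tested, 10 had pool 3 highest and pool 2 lowest, an order that 10.4% of all genes tested had. Marcksl1 (384, 230, 339 and 230 CPM), an actin regulator, was the exception. Of the 10, 9 ran from pool 3 over pools 1 and 4 to pool 2, beside 5.86% of all genes tested. The pool orders counted here and for the other lists were chosen after these values were seen. Such shares therefore describe the lists and test nothing. The sum of the list was 4117, 2343, 4639 and 2788 CPM, a 1.98-fold range. Of 11 members tested, 5 exceeded an SD of log2 CPM of 0.5, beside 2.68% of genes with a mean of at least 10 CPM.

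Genes of costimulation and checkpoints went with it in part, since 7 of 17 tested had the same highest and lowest pool. The PD-1 ligand Cd274 had 136, 53.9, 171 and 83.6 CPM, Tnfsf9 (4-1BB ligand) 52.8, 28.8, 79.0 and 43.7 CPM, and Cd40 73.5, 53.9, 94.0 and 65.0 CPM. Cd83 (2583, 2092, 2752 and 1903 CPM) was lowest in pool 4. Relb, a factor of the alternative NF-kB pathway, had 173, 131, 182 and 137 CPM. Of the cDC1 identity list 0 of 20 members had this order, which 10.4% of all genes tested had. In bulk RNA a larger share of mature cells and more RNA of these genes per cell cannot be told apart.

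The mature list also ranged widely in the other groups. It summed to 3026 to 6381 CPM over the XBP1dDC pools and to 4249 to 8405 CPM over the XBP1dDC IRE1truncDC pools, a highest-to-lowest ratio of 2.11 and 1.98. These ranges are given as values and were not compared by a test.

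Interferon-induced genes varied too. The interferon-gamma list had 9 of 14 tested members with pool 3 highest and pool 2 lowest, beside 10.4% of all genes tested, and its sum was 1528, 1149, 1567 and 1285 CPM. Irf1 had 245, 142, 274 and 191 CPM, and the GTPase Gbp5 47.5, 23.9, 52.7 and 30.1 CPM. Gbp2, at 79.9, 42.4, 53.0 and 30.8 CPM, and Cxcl9, at 86.5, 59.9, 61.4 and 46.8 CPM, instead ran highest in pool 1 and lowest in pool 4. The type I interferon list summed to 1572, 1220, 1622 and 1161 CPM, with pools 1 and 3 above pools 2 and 4. Isg15 had 37.4, 28.2, 44.5 and 25.2 CPM, Irf7 288, 195, 262 and 167 CPM, and Stat2 256, 207, 260 and 226 CPM. Usp18 (59.6, 63.4, 72.2 and 64.4 CPM) was instead lowest in pool 1, and Ifit1 (5.93, 3.26, 5.01 and 5.80 CPM) highest in pools 1 and 4. Of 21 members tested, 2 had pool 3 highest and pool 2 lowest, beside 10.4% of all genes tested, and 7 had pool 1 highest and pool 4 lowest, beside 11%.

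The element GAAA repeated after 2 further bases, the core of the interferon-stimulated response element, was searched in the same promoter windows, because both lists are named for induction by interferon. It was found for 9 of 16 matched type I genes (56.2%) and 8 of 11 matched interferon-gamma genes (72.7%), beside 2.98% of all windows. Here too genes were counted over all their windows, so the shares differ in unit. The 60-base stretches with the matches in capitals lie at chr4:156200856-156200915 on the minus strand for Isg15, chr10:128270251-128270310 on the plus strand for Stat2, chr3:142620579-142620638 on the plus strand for Gbp2, chr3:142496744-142496803 on the plus strand for Gbp5 and chr5:92349068-92349127 on the minus strand for Cxcl10. In Isg15, 3 overlapping matches form 1 run, and Stat2, Gbp2 and Gbp5 hold it on the other strand. For the mature list 1 of 9 matched genes held the element.
Isg15: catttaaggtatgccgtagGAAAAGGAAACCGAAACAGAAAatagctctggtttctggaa
Stat2: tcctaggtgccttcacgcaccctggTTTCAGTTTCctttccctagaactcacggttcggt
Gbp2: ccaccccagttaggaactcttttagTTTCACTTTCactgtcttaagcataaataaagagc
Gbp5: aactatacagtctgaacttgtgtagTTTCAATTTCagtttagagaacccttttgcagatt
Cxcl10: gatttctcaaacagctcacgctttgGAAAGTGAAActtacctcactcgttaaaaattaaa

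Chemokine genes spread by about as much as the mature list, with sums of 2116, 1264, 2403 and 1578 CPM. Ccl4 had 507, 305, 521 and 305 CPM, Ccl5 236, 154, 277 and 148 CPM, and Cxcl16 499, 321, 524 and 421 CPM. Pools 1 and 3 were the higher ones for these genes and for Cxcl10 (13.5, 4.62, 16.3 and 5.49 CPM).

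Immediate early genes, which are transcribed within minutes of a stimulus, followed another order. Nr4a2 had 854, 464, 437 and 229 CPM, Fosb 262, 213, 120 and 74.2 CPM, Nr4a3 243, 106, 148 and 80.1 CPM, and Egr2 253, 136, 194 and 113 CPM. Pool 1 was the highest and pool 4 the lowest for all 4 of them and for 12 of the 19 members tested, an order seen in 11% of all genes tested. Fos itself was high, at 2243, 2117, 1750 and 1888 CPM, and spread less than Nr4a2, Fosb, Nr4a3 and Egr2. Both Fos and Egr1 (356, 178, 116 and 134 CPM) were lowest in pool 3. The list summed to 15062, 11946, 11985 and 10831 CPM. The study's methods include a warm enzymatic digestion of tumors before sorting, and its part in these levels was not tested.

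Cell cycle genes were detected in every pool and were lowest in pool 1. Top2a had 119, 194, 176 and 220 CPM, Ccnb1 28.7, 49.6, 44.0 and 54.5 CPM, and Mki67 98.7, 143, 143 and 107 CPM. Pool 1 was the lowest for 16 of 18 members, beside 24.8% of all genes tested, with Mcm2 and Stmn1 lowest in pool 3. The sum was 2188, 2956, 2703 and 2940 CPM. The replication gene Mcm6 had 253, 304, 286 and 297 CPM, a smaller range than those of Top2a and Ccnb1.

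Transcripts of melanocytes were at a low level that differed by pool. Pmel had 3.64, 1.70, 17.0 and 12.0 CPM, Tyrp1 1.06, 1.70, 10.03 and 10.4 CPM, and Dct and Gpnmb the values above. Pools 3 and 4 lay above pools 1 and 2 for 6 of the 12 members, namely these 4, Mlana and Trpm1. The last 2 had at most 2.63 CPM in any pool. Of the 7 members tested 6 had this order, beside 17.8% of all genes tested. Tyr, Sox10, Slc45a2, Mc1r, Oca2 and Mitf did not have this order. Other genes were also higher in pools 3 and 4, among them the collagen genes above, Apoe, C1qa (0.381, 2.77, 7.09 and 4.50 CPM), C1qb (2.71, 4.22, 8.66 and 5.84 CPM), C1qc (1.65, 2.40, 5.05 and 4.59 CPM) and Arg1 (0.551, 1.04, 4.68 and 4.86 CPM). They are named here because of that order, and their part in the melanocyte values was not tested. Of the monocyte and macrophage list 6 of 15 tested members had this order, of the fibroblast and endothelium list 2 of 5, and of the cDC1 identity list 7 of 20. Lyz2, Ccr2 and Cd14 were instead lower in pools 3 and 4, as was the monocyte and macrophage sum (1788, 1797, 1220 and 1334 CPM). The melanocyte list summed to 17.1, 12.9, 75.7 and 78.0 CPM, a 6.06-fold range. The cDC1 identity sum was also higher in pools 3 and 4 than in pools 1 and 2, but ranged 1.09-fold. Sums in the other groups ran from 16.9 to 86.8 CPM in XBP1dDC and from 12.8 to 16.7 CPM in XBP1dDC IRE1truncDC.

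Transcripts linked to the sex chromosomes differed between the pools. Xist, expressed from the inactive X, had 34.6, 61.6, 15.5 and 35.6 CPM, and the Y-linked Ddx3y 41.0, 14.8, 54.7 and 29.5 CPM. Pool 2 was the highest for Xist and the lowest for Ddx3y, and pool 3 the reverse. Eif2s3y (26.5, 15.4, 45.7 and 22.5 CPM) and Uty (11.8, 5.40, 16.0 and 11.8 CPM) had their highest and lowest value in the same pools as Ddx3y, whereas Kdm5d (13.9, 6.55, 12.0 and 4.73 CPM) was highest in pool 1 and lowest in pool 4. Every control pool held reads of Xist and of all 4 Y-linked genes. Pool 3 was the highest and pool 2 the lowest for Ddx3y as for most mature genes, and the part of sex in those values was not tested.

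**Figure D5:**
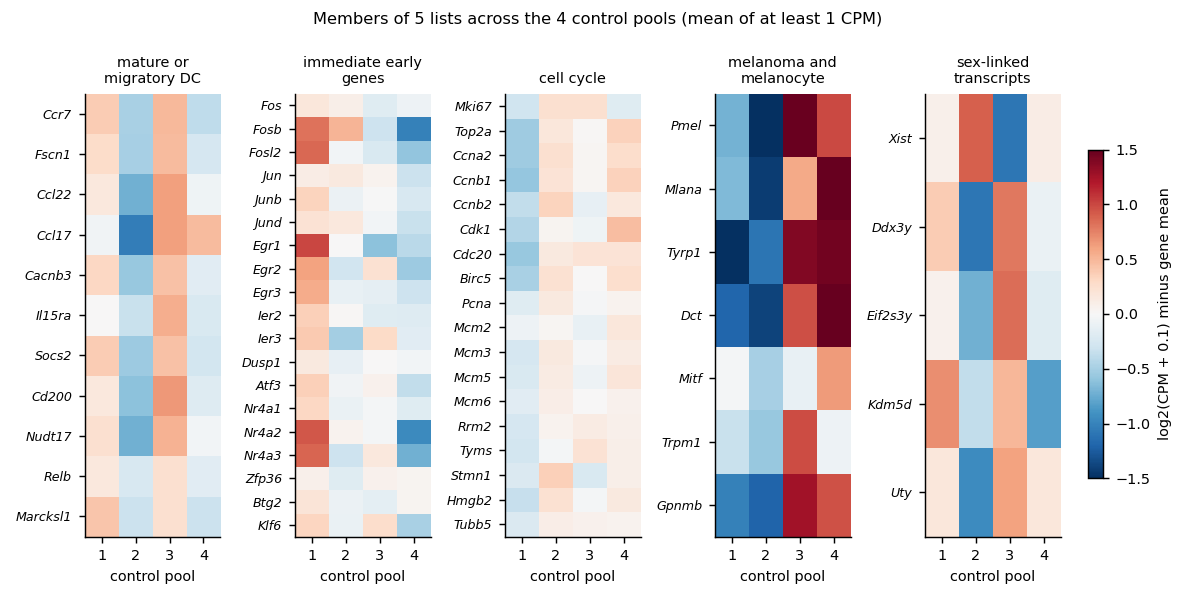
Members of 5 lists with a mean of at least 1 CPM in each of the 4 control pools. Colour gives log2(CPM + 0.1) minus the mean of the gene, red above and blue below it, and ends at 1.5. Mature genes are mostly red in pools 1 and 3, immediate early genes in pool 1 and melanocyte genes in pools 3 and 4, while cell cycle genes are mostly blue in pool 1.

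Pools were compared by how many genes set each apart. The number of genes with a mean of at least 10 CPM that lay over 2-fold from the median of the other 3 pools was 57 for pool 1, 45 for pool 2, 33 for pool 3 and 38 for pool 4. These counts rest on single pools, since leaving 1 out gave 26 to 76 for pool 1, 21 to 86 for pool 2, 24 to 50 for pool 3 and 17 to 68 for pool 4. Genes of pool 2 were mostly lower (42 of 45), genes of pool 3 mostly higher (23 of 33). Across the 10724 genes tested, log2 levels of any 2 pools correlated at 0.968 to 0.975 (Pearson's r across genes, which are not independent replicates). By this measure pools 2 and 3 were the most distant and pools 3 and 4 the closest. By the number of genes over 2-fold apart, pools 1 and 4 were the most distant, with 142, and pools 2 and 4 the closest, with 48.

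Pool 4, the one control pool with IRE1 fl/fl alleles, had a low value of Arf2. This gene of an ADP-ribosylation factor of the Golgi lies at chr11:103966739-103985337 (GRCm38, plus strand), 2.41 Mb from Ern1 at chr11:106394650-106487852, whose alleles are floxed there. Arf2 had 35.8 CPM in pool 4 against 228 to 370 CPM in the 3 XBP1 fl/fl pools, the largest ratio between pools of any gene above 10 CPM (10.3-fold). Outside the control group, the 3 XBP1dDC IRE1truncDC pools lay between 39.7 and 51.3 CPM and the 4 XBP1dDC pools between 210 and 357 CPM. These values of the other groups are given side by side and were not tested. Ern1 itself did not share this order: it was lowest in pool 4 among the controls, at 9.81 CPM against 13.1 to 19.0 CPM, but lay between 9.73 and 15.6 CPM in the XBP1dDC pools and between 17.0 and 25.97 CPM in the XBP1dDC IRE1truncDC pools.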

How the data were processed

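The authors trimmed reads with Trimmomatic 0.39, checked them with FastQC 0.11.8, mapped them to mm10 with STAR 2.7.3a and counted them per gene with HTSeq. The libraries were single-end after SMART-seq pre-amplification, and whether strand or reads with several positions were used is not given in the sources used here. The deposited counts were raw whole numbers per gene. The deposited log2 table held normalized log2 CPM made with limma 3.42.2 and served as an alternative.

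Counts of the 4 control pools were scaled by TMM factors (edgeR) over all 11 pools, set from genes above 1 CPM in at least 4 pools. TPM used exon lengths of transcripts that GENCODE vM21 (GRCm38) pairs with RefSeq, or of all its basic transcripts where there were none, for 24042 of 24421 genes, which held 99.1% to 99.2% of counts. The SD on the log2 scale used a prior count of 2. Spread was tested for genes with a mean of at least 1 CPM by a chi-square test of the 4 counts against the effective library sizes, with Benjamini-Hochberg adjustment. The script was tested on simulated data. Dispersion was estimated with edgeR 4.0.16, and size factors of DESeq2 1.42.0 were an alternative. Genes named are the 20 highest by TPM, the 10 with most reads, list members and the 25 most variable, and others are said to be chosen after their values were seen. The groups came from the labels. The description, its members and its 44 gene lists were chosen with earlier results of these data known. The pool orders counted in the lists were chosen after the values of their genes were seen, so these counts are a description and no test. The 13 mitochondrially encoded genes of one list are not analysed here.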

Additional observations from a re-analysis of the deposited data

Results flagged for a closer look

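In each case below the normalized level in 1 of the 4 control pools lay far from the other 3. Of 241 genes and 43 list sums checked, 17 genes and no list sum met this criterion, where chance flags about 1 in 20, or 14.2 of this number. Pool 1 was low for Xcr1 (772.5 CPM), Tmsb4x (17404 CPM) and Ticrr (5.676 CPM) and high for Cyba (554.2 CPM). Pool 2 was low for Cd86 (295.6 CPM) and Tbx21 (14.84 CPM) and high for Cxx1a (10.32 CPM). Pool 3 was high for Il12b (590.1 CPM), and pool 4 was low for Psmb7 (104.3 CPM). The other 8 genes met the criterion because only 1 pool held reads, so the chance share does not apply to them. All 8 were at very low levels. These were Ncr1 (0.222 CPM), Prf1 (0.296 CPM), Eomes (0.037 CPM) and Tlr5 (0.037 CPM) in pool 2, Oca2 (0.0892 CPM) in pool 4, and Ifnb1 (0.08471 CPM), Pdia2 (0.08471 CPM) and Dcn (0.1694 CPM) in pool 1.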

How the results depend on the processing

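No paired analysis was possible because a single group was described and no groups were contrasted by a test. Scaling by total counts, by TMM over the 4 control pools or by DESeq2 size factors moved none of 129 list sums and none of 723 values of named genes by more than the SD over pools. With a mean of at least 1 CPM instead of 10 CPM, 1269 genes had an SD of log2 CPM over 0.5. Ranked by reads without length, the highest 20 shared 13 genes with those by TPM. Leaving out each pool in turn kept 14 to 17 of the 25 most variable genes, gave a biological coefficient of variation of 0.1935 to 0.1994 and called 8242 to 8507 genes beyond counting error. The count of genes over 2-fold from the other pools then ran from 26 to 76 for pool 1, 21 to 86 for pool 2, 24 to 50 for pool 3 and 17 to 68 for pool 4. Without pool 4, pool 1 had 26 and pool 2 had 86. Without pool 1, pool 3 had 50 and pool 4 had 17. Without pool 2, pool 4 had 68, and without pool 3, pool 2 had 21. Chosen after seeing the data, the scalings left the counts of mature (10), immediate early (11 to 12), cell cycle (16 to 18) and melanocyte (6) genes sharing a pool order, and exon lengths of all basic transcripts kept 18 of the highest 20. With 4 pools and amplified reads, low genes are the least certain, and a gene at 0 may lie under the limit given above.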
